A study of Mus musculus with 6 samples.

Results

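Ccn5, formerly named Wisp2, was examined on 6 single-colour arrays of mouse liver RNA. It was read by 1 probe with 1 spot per array, out of 59631 probes that remained after filtering, and this probe carries the RefSeq accession NM_016873 in a table deposited by the authors, through which 2211 genes could be named. The gene was chosen by its large signal difference between the 2 groups on these same arrays, so its levels are given as a description and no test of that difference is reported. No further probe of Ccn1 to Ccn6 carried a name, and the other CCN genes were not analysed here. Ccn5 lies on chromosome 2 in RefSeq assembly GRCm38.p6. The sequence of the probe and its place in the transcript are not given in the sources used here.

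All mice were C57Bl/6 and were kept to 12 months of age. The HCC group comprised 3 arrays of liver with hepatocellular carcinoma (HCC) from mice homozygous for a hypomorphic floxed Apc allele (Apcfl/fl), so that less Apc, which restrains Wnt/β-catenin signalling, is made; no Cre transgene is named for these mice. The control group comprised 3 arrays of tumour-free liver from Apc+/+ mice. No treatment is named for either group, and Apc itself was not analysed here. RNA came from whole tissue, labelled as liver cancer in the HCC group and as normal liver in the control group. In such tissue a larger share of the cells that express a gene and more of its RNA per cell cannot be told apart. Nothing in the labels says that arrays of a group came from separate animals, so errors measure the spread between these samples.

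CCN proteins are secreted matricellular proteins, which lie in the extracellular matrix and modulate how cells respond to growth factors and integrins rather than serving as scaffold. They share modules resembling insulin-like growth factor binding proteins, von Willebrand factor type C domains and thrombospondin repeats, and Ccn5 is the member that lacks the C-terminal cystine-knot module of the others. Ccn5 was first described as a gene induced by Wnt signalling, and it is best known from vascular smooth muscle cells, fibroblasts and breast epithelium rather than from hepatocytes.

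Ccn5 was far brighter in Apcfl/fl HCC than in Apc+/+ liver. Its processed intensity, a linear value after background subtraction within each array, was 4418, 4265 and 3116 on Apcfl/fl replicates 1, 2 and 3. On Apc+/+ replicates 1, 2 and 3 it was 102, 92.6 and 93.1. The lowest HCC value was thus 30.5 times the highest liver value before any normalisation between arrays. The error that the scanner software assigns to each spot ranged from 312 to 442 in HCC and from 9.69 to 12.6 in liver. The spot was flagged well above background on each of the 6 arrays and was neither saturated nor flagged as an outlier on any of them.

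After quantile normalisation between arrays, the log2 signal of Ccn5 was 11.98, 12.11 and 11.77 on the HCC arrays and 6.42, 6.70 and 6.28 on the liver arrays. The HCC arrays all lay above the liver arrays, with a gap of 5.07 between the nearest pair. Every HCC array was above every liver array for 17.4% of the 45640 probes tested, and since the gene was chosen on this contrast nothing is read from its lying among them. The first pair of HCC arrays, replicates 1 and 2, may be 1 library: over bright probes their difference was below the technical noise (mean chi-square per probe 0.774). Their mean was counted as 1 sample. On that count Ccn5 was 11.91 ± 0.19 (SD, n = 2) in HCC and 6.47 ± 0.21 (SD, n = 3) in liver. The log2 difference was 5.44, a fold of 43.4. With the 6 arrays taken as 6 samples the difference was 5.48. Ranked by this difference, Ccn5 was number 33 of 45640 tested probes and number 15 of 2320 tested mRNA probes with a gene name.

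**Figure D1:**
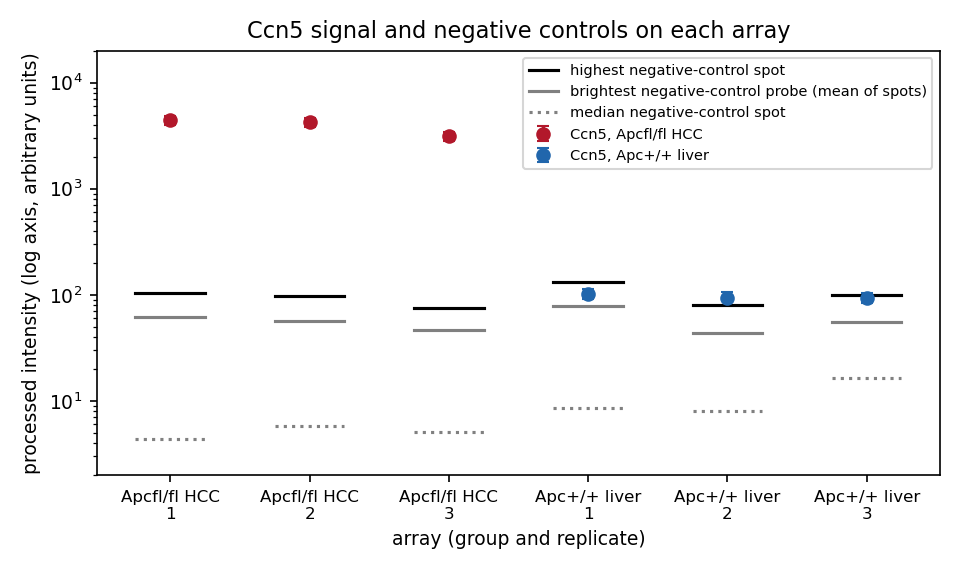
Processed intensity of the Ccn5 spot on each array (points, log axis; bars are the scanner software's error) with lines at the highest negative-control spot (black), the brightest negative-control probe's mean (grey) and the median negative-control spot (dotted) of the same array. The 3 HCC points lie between 3116 and 4418, at least 41.3 times the highest negative-control spot, whereas the 3 liver points lie between 92.6 and 102, near that spot.

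Whether the liver level was a measured one was examined with 20 negative-control probes, meant to bind no mouse transcript and spotted many times over. On the HCC arrays no negative-control spot was as bright as Ccn5, which was 42.7, 43.4 and 41.3 times the highest such spot on Apcfl/fl replicates 1, 2 and 3. On the liver arrays Ccn5 was close to the upper end of the negative controls. It was outshone by 4.47% of their spots on Apc+/+ replicate 1, by 0.258% on replicate 3 and by none on replicate 2. Against the highest single negative-control spot, Ccn5 was at 0.778, 1.15 and 0.928 times its intensity on Apc+/+ replicates 1, 2 and 3. Averaged over spots, no negative-control probe reached Ccn5 on any array, and its excess over the brightest of them was 0.38, 1.08 and 0.76 on the log2 scale on the 3 liver arrays. The low end of the difference therefore lies near the level of non-specific signal, and its size depends on how background is treated. With a normexp background model, which adds an offset of 50 before the log, the difference was 4.70 (SE 0.11), a fold of 26.1, the lowest of 14 alternatives. The others gave log2 differences from 5.35 to 5.58, the latter in the authors' own normalised values and without Apcfl/fl replicate 3.

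**Figure D2:**
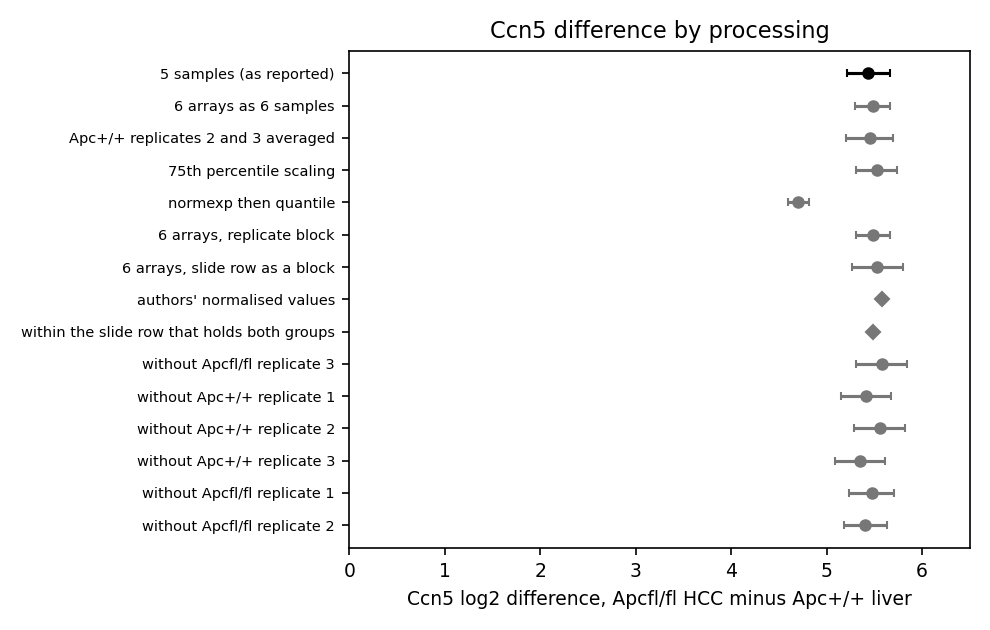
Log2 difference of Ccn5, Apcfl/fl HCC minus Apc+/+ liver, as reported with 5 samples (black) and under 14 alternatives (grey); bars are standard errors and diamonds are values without one. Every value lies between 4.70 and 5.58, the lowest with normexp background correction.

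The 2 HCC samples, as counted here, had like levels of Ccn5. The mean of Apcfl/fl replicates 1 and 2 exceeded replicate 3 by 0.27 on the log2 scale, a ratio of 1.21. Over all tested probes the median size of that difference was 0.35, and 58.1% of probes differed more between these samples than Ccn5 did. Replicates 1 and 2 differed by 0.13, which is less than the error of 0.14 assigned to each spot on this scale. Among the liver arrays the range of Ccn5 was 0.42, against a median range of 0.50 over all tested probes, and 57.8% of probes had a wider range. The arrays of the first row of the slide comprised the 3 HCC arrays and Apc+/+ replicate 1, and within that row the log2 difference was 5.49. A fit that took the slide row as a block gave 5.53.

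To place Ccn5 among genes of its pathways, 17 lists of matricellular, Wnt, YAP, growth factor and cell type genes were searched for names. Of 281 genes other than Ccn5, 31 had a named probe. Names exist almost only where the authors had called a probe between these groups, so the named genes were selected for a difference, which makes their counts no independent evidence. By limma with Benjamini-Hochberg adjustment over all tested probes, and at an adjusted p below 0.05 with a fold of at least 2, 3 of the 31 rose and 3 fell in HCC. Of all tested probes 1.03% rose and 0.896% fell at that threshold. The median log2 difference of the 31 genes was -1.21, against 0.06 for all tested probes and 1.03 for the tested mRNA probes with a gene name. Every HCC array lay above every liver array for 10 of the 31 and below for 20, against 17.4% and 16.4% of all tested probes, with Axl the exception. With 6 arrays as 6 samples 7 rose and 15 fell, where 3.44% of all tested probes rose and 4.1% fell. When Apc+/+ replicate 1, 2 or 3 was left out, no list gene passed by limma, while 25, 26 and 25 had an unadjusted p below 0.05, and without Apcfl/fl replicate 3 the number that passed was 2.

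Among the other matricellular proteins, 3 of 22 were named, of which 1 rose and none fell. Spp1 encodes osteopontin, a secreted phosphoprotein that binds integrins. Its brightest probe gave log2 signals of 13.86, 13.89 and 12.33 in HCC and 7.41, 8.52 and 8.36 in liver. Spp1 thus rose, with a log2 difference of 5.0 (SE 0.59) and an adjusted p of 0.0351 by limma. Its 4 other probes gave 1.87 to 4.85, and the lowest of them did not pass. For the probes with differences of 1.87 and 4.52, the liver means of 5.05 and 5.72 lay below 5.79. That value is the normalised log2 level of the negative-control probe with the highest mean, so these sizes are uncertain. At the brightest probe the log2 signal in Apcfl/fl replicate 3 was well below that in replicates 1 and 2, whereas Ccn5 was nearly level across the HCC arrays. Postn encodes periostin, a matricellular protein of fibroblasts. Its log2 signals were 5.90, 5.74 and 7.85 in HCC and 8.55, 8.75 and 8.75 in liver, a difference of -1.85 that did not pass the test (adjusted p 0.209 by limma). Sparc, which encodes a collagen-binding matricellular protein, had a log2 difference of 0.96 and did not pass either (adjusted p 0.294 by limma). Whether these differences depart from that of Ccn5 was not tested.

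Of 25 genes for Wnt ligands, R-spondins and their secretion, 4 were named, of which none rose and 1 fell. Porcn encodes the acyltransferase that attaches the lipid Wnt proteins need for secretion. Its log2 signals were 4.76, 4.39 and 4.60 in HCC and 6.18, 6.93 and 6.85 in liver, so that it fell by 2.06 (SE 0.29, adjusted p 0.0481 by limma). The Wnt ligand Wnt10a was at 5.61, 5.59 and 5.34 in HCC and at 3.47, 3.69 and 4.05 in liver (difference 1.74, adjusted p 0.0501 by limma). The ligands Wnt7a and Wnt9a had log2 differences of 2.68 and -2.21, with adjusted p-values of 0.0823 and 0.154 by limma. In each of these 4 genes the HCC and liver arrays did not overlap, as in every named list gene but Axl. Of all tested probes 17.4% had every HCC array above every liver array, and 16.4% had every one below. In each of the 4 genes the lower group's mean lay below 5.79, the normalised log2 level of the negative-control probe with the highest mean. For Wnt10a the HCC mean, 5.47, lay below that level too. This makes the sizes of the 4 differences uncertain.

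No gene of the lists of 19 Wnt receptors and 20 Wnt antagonists was named. Of 29 intracellular and nuclear components, Tcf7l2, a transcription factor that partners β-catenin on DNA, was named. Its log2 signals were 9.22, 8.88 and 8.63 in HCC and 10.08, 10.27 and 9.81 in liver, a difference of -1.21 that did not pass (adjusted p 0.0885 by limma). Of 24 Wnt target genes outside the pericentral liver programme, 3 were named, of which 1 rose and none fell. Birc5, which encodes survivin, an inhibitor of apoptosis that also serves in mitosis, had log2 signals of 10.67, 10.63 and 9.45 in HCC and 6.26, 5.84 and 6.67 in liver. It rose by 3.79 (SE 0.45, adjusted p 0.0356 by limma). Jun, a subunit of the AP-1 transcription factor, had a difference of 1.54 and the angiogenic factor Vegfa one of -4.17 at its brighter probe and -3.20 at the other. Neither gene passed, with adjusted p-values by limma of 0.0896 for Jun and of 0.0642 and 0.0670 for the Vegfa probes. The HCC mean of the dimmer Vegfa probe, 5.71, lay below 5.79, the negative-control level given above. That of the brighter probe, 5.90, was near it, so the sizes of the Vegfa differences are uncertain. The named Wnt genes thus had differences in both directions.

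YAP and TEAD target genes were listed because Ccn1 and Ccn2 belong to them, and 4 of 16 were named. Ajuba, a LIM-domain scaffold protein, had log2 signals of 13.27, 13.23 and 13.10 in HCC and 10.49, 9.64 and 9.82 in liver and rose by 3.20 (SE 0.31, adjusted p 0.0238 by limma). Amotl2, Rbms3 and Axl had differences of -1.25, -1.23 and -0.99 and did not pass. The HCC mean of Rbms3, 5.29, lay below 5.79, the negative-control level given above, so the size of its difference is uncertain. Of 25 binding partners of CCN proteins, 3 were named and none passed. They were Vegfa, given above, the bone morphogenetic protein Bmp2 (-2.59, adjusted p 0.118 by limma) and the heparan sulphate proteoglycan Sdc4 (-1.79, adjusted p 0.145 by limma). Of 13 genes of the insulin-like growth factor axis, the growth factor gene Igf1 and the binding protein gene Igfbp7 were named. Their differences of -1.18 and -0.99 did not pass (adjusted p 0.0692 and 0.175 by limma).

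**Figure D3:**
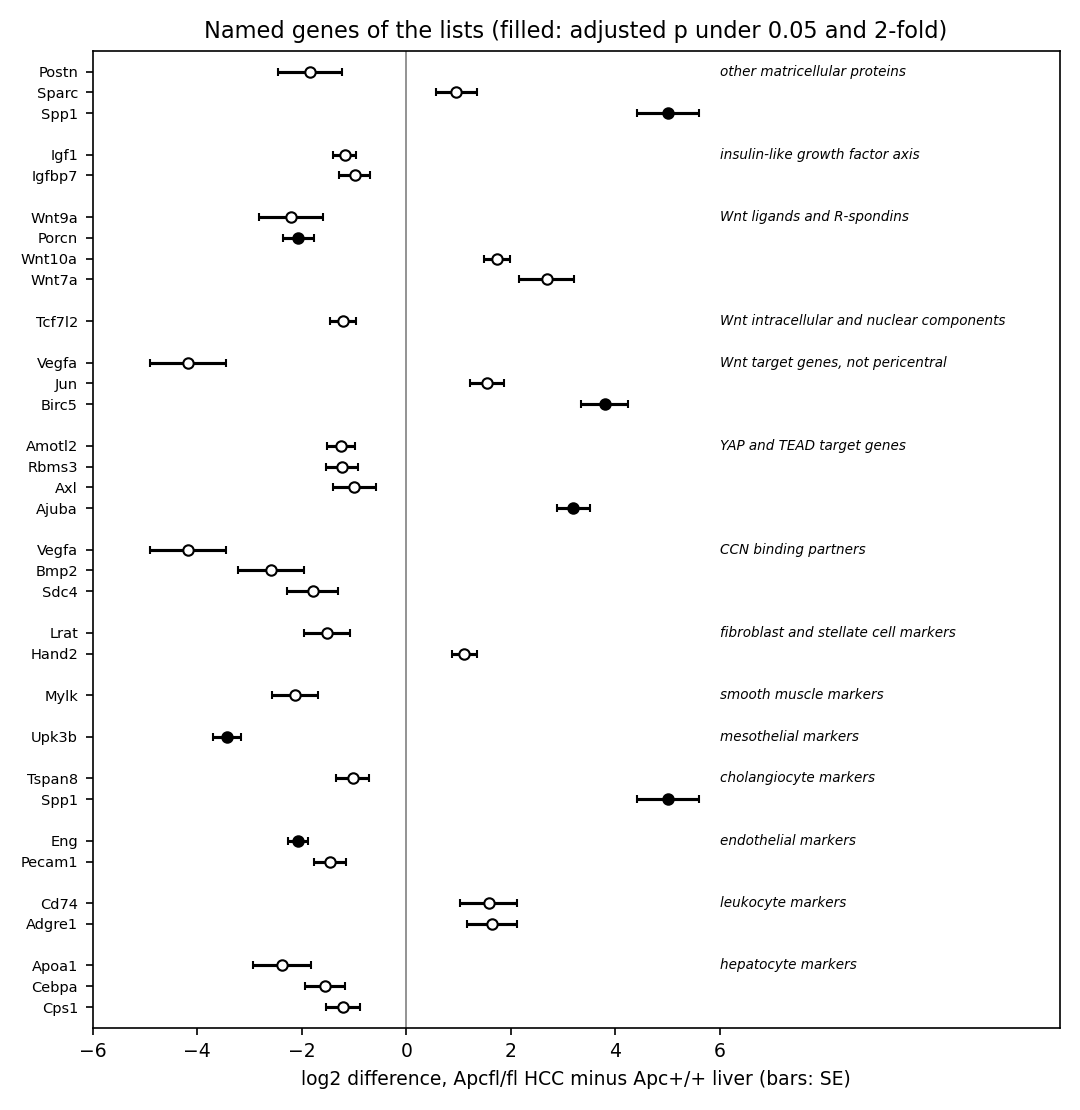
Log2 difference of each named list gene other than Ccn5, Apcfl/fl HCC minus Apc+/+ liver, at its brightest probe (points; bars are standard errors), by list; genes in 2 lists appear in both. Filled points, which are Spp1, Birc5 and Ajuba on the right and Porcn, Upk3b and Eng on the left, passed the adjusted threshold with a fold of at least 2; for Upk3b the HCC signal was not well above background, so its point is not its measured size.

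Since Ccn5 is known from mesenchymal cells, markers of the cell types that liver tissue can hold were read beside it. Of 26 fibroblast and stellate cell markers 2 were named, the transcription factor gene Hand2 and the retinol-storing enzyme gene Lrat, with log2 differences of 1.11 and -1.52, and neither passed (adjusted p 0.0961 and 0.165 by limma). The Hand2 means (5.13 in HCC, 4.02 in liver) and the Lrat HCC mean (5.41) lay below 5.79, the negative-control level given above. The sizes of these differences are therefore uncertain. For a summed level, linear signals were added at each gene's brightest probe before the log2, so the brightest gene weighs most. The summed level of Hand2 and Lrat was 5.74 to 6.71 in HCC and 6.96 to 7.28 in liver. Of 10 smooth muscle markers Mylk, which encodes myosin light chain kinase, was named, at 6.72 to 7.70 in HCC and 8.73 to 9.64 in liver (adjusted p 0.0867 by limma). With the 6 arrays as 6 samples all 3 passed. By limma, Hand2 was higher in HCC (adjusted p 0.0331), and Lrat and Mylk were lower (adjusted p 0.04999 and 0.0292). That count treats Apcfl/fl replicates 1 and 2, which may be 1 library, as 2 samples. On it 22 of the 31 list genes passed, and 3.44% of all tested probes rose and 4.1% fell. In each of the 3 the HCC and liver arrays did not overlap, as in every named list gene but Axl (17.4% of all tested probes with HCC above, 16.4% below). The collagen genes and Acta2, the usual markers of activated stellate cells, were not analysed here.

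Of 8 mesothelial markers Upk3b, which encodes a uroplakin of the mesothelial surface, was named and fell. It was not well above background on any HCC array and was at 6.95, 6.74 and 6.29 in liver (adjusted p 0.0188 by limma). With its HCC signals raised to the lowest normalised signal of any probe well above background on that array, it was 7.52-fold lower in HCC. Its HCC mean lay below 5.79, the negative-control level given above, and its liver mean of 6.66 was near that level. The size of the fall is therefore uncertain. Of 12 endothelial markers 2 were named. Eng, which encodes endoglin, a TGF-β co-receptor, was at 6.94, 6.99 and 7.07 in HCC and 9.25, 9.03 and 8.98 in liver and fell by 2.07 (SE 0.20, adjusted p 0.0224 by limma). The adhesion molecule gene Pecam1 had a difference of -1.46 (adjusted p 0.0924 by limma), with an HCC mean of 5.55 that also lay below 5.79. The summed level of both was 7.30 to 7.62 in HCC and 9.29 to 9.57 in liver.

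Of 12 cholangiocyte markers Spp1 rose, as given above, and Tspan8, a tetraspanin gene, had a difference of -1.02 (adjusted p 0.183 by limma). Their summed level was 12.36 to 13.89 in HCC and 8.27 to 9.09 in liver. In HCC this sum was almost wholly the signal of Spp1. Tspan8 went the other way, at 5.75, 6.10 and 6.73 in HCC and 7.12, 7.49 and 7.46 in liver. Of 20 leukocyte markers Cd74, the invariant chain of antigen presentation, and Adgre1, a macrophage surface receptor, were named. Their summed level, mostly that of Cd74, was 11.49 to 13.09 in HCC and 10.32 to 10.96 in liver. Their differences of 1.57 and 1.64 did not pass (adjusted p 0.225 and 0.170 by limma). The other, dimmer Cd74 probe had a difference of 1.58 and did not pass either (adjusted p 0.108 by limma). With 6 arrays as 6 samples that dimmer probe passed (adjusted p 0.0275 by limma), while the brighter did not (adjusted p 0.0749 by limma). Of 16 hepatocyte markers, Apoa1, Cebpa and Cps1 were named, with a summed level of 14.45 to 15.53 in HCC and 16.59 to 17.36 in liver. Their differences were -2.38, -1.56 and -1.21. None of the 3 passed (adjusted p 0.114, 0.121 and 0.147 by limma). Counted as 6 samples, Apoa1 and Cps1 passed as lower in HCC (adjusted p 0.0416 and 0.0421 by limma). Cebpa did not (adjusted p 0.0629 by limma). On that count 3.44% of all tested probes rose and 4.1% fell. The part of these cell type markers in the difference of Ccn5 was not tested.

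To find genes with a pattern like that of Ccn5, the named genes were ranked by the root mean square difference between their log2 profile over the 6 arrays and that of Ccn5, each with its own mean subtracted. The 8 nearest of 2189 genes were Bhlha15 (0.205), Cdc20 (0.232), Cav1 (0.282), Dnase1 (0.304), Cdk1 (0.333), Elapor1 (0.344), Plk1 (0.436) and Phlda2 (0.463), and the next gene was at 0.485. These values are in log2 units, where the median over all ranked genes was 2.22. Pearson's r with Ccn5 was 0.991 to 0.9997 for the 8, but it was at least 0.99 for 4.57% of the genes ranked. The points share a 2-group layout and a pair of near-identical arrays. The ranked genes also had names almost only where the authors had called them between these groups. The part of each in this share was not tested.

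Bhlha15, the nearest, encodes a transcription factor of secretory cells. Its log2 signals were 13.08, 13.13 and 12.39 in HCC and 7.43, 7.71 and 7.59 in liver. Cdc20, Cdk1 and Plk1 drive mitosis, and Cdc20 was at 13.97, 13.99 and 13.83 in HCC and 8.91, 9.02 and 8.73 in liver. Cav1, the coat protein of caveolae, was at 15.25, 15.20 and 14.31 in HCC and 9.21, 9.54 and 9.62 in liver. Dnase1, a secreted nuclease, and Phlda2, an imprinted growth regulator, followed the same layout, as did Elapor1. On each of the 8 the HCC and liver arrays did not overlap, which their choice by nearness to the Ccn5 profile fixed in advance. All had their lowest HCC signal on Apcfl/fl replicate 3, as did Ccn5, a trait that the same choice could favour. For Cdk1 and Elapor1 the liver mean was below 5.79, so the size of their difference is uncertain. Having been picked for likeness to Ccn5, these genes were given no test.

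**Figure D4:**
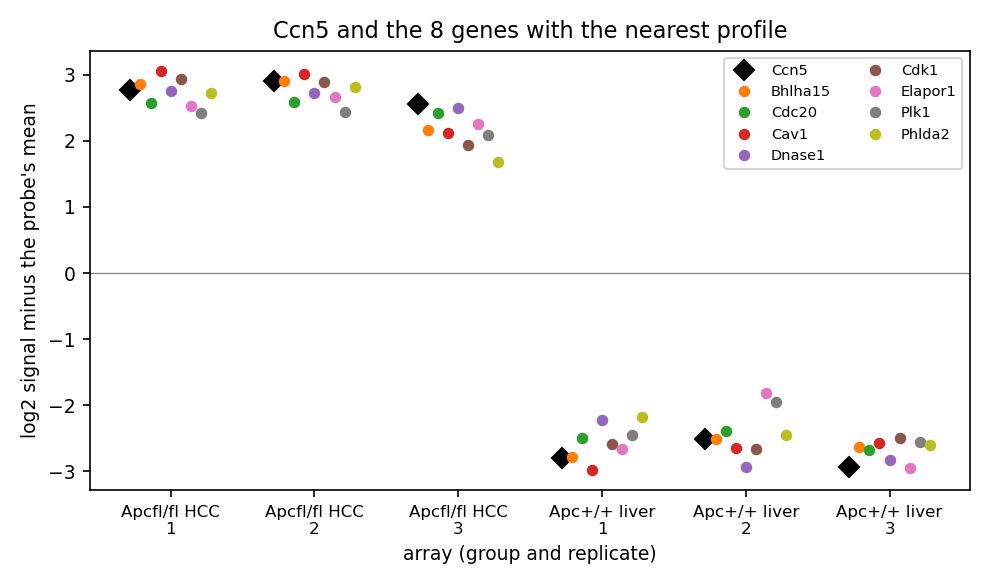
Log2 signal minus the probe's own mean over the 6 arrays for Ccn5 (diamonds) and the 8 named genes with the nearest profile (circles), by array; sideways shifts only keep points apart. All 9 genes lie above their own mean on the HCC arrays and below it on the liver arrays, with the widest scatter on Apcfl/fl replicate 3 and Apc+/+ replicate 2.

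The 5 genes on either side of Ccn5 on its chromosome, in the order of the RefSeq table, were looked up as well. The nearest are Ada, an enzyme of purine breakdown, and Kcnk15, a potassium channel gene. None of the 10 had a named probe, so their signals were not analysed here.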

How the data were processed

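Total liver RNA, freed of rRNA, was turned by random priming into cRNA carrying Cy3 and hybridised to an Arraystar mouse lncRNA array that also holds mRNA probes, designed on build mm9. The authors extracted the scans with Agilent Feature Extraction (version 11.0.1.1, per the submitters' processing notes). The deposited scanner files give processed intensity, background-subtracted within an array and not normalised between arrays, with errors and flags. A deposited table gives log2 values, quantile normalised by the authors, of 4197 probes that they had called between the groups.

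Each array had 62513 spots. Control spots, 1200 spots of 20 negative-control probes and outlier spots were left out, log2 processed intensities were averaged per probe, and 59631 probes were quantile normalised. The study's methods name quantile normalisation of raw data in GeneSpring, so these values are not those of the authors' table. The 45640 probes well above background on at least 3 arrays were fitted with limma (version 3.58.1, R 4.3.3), two-sided, with no covariate. Apcfl/fl replicates 1 and 2 were averaged because their mean chi-square was below 1. Adjusted p-values are Benjamini-Hochberg values over all tested probes, and the threshold was 0.05 with a fold of at least 2. Differences are Apcfl/fl minus Apc+/+. Accessions were named with the RefSeq gene table of GRCm38.p6, which matched 2341 of 2386 mRNA probes. Where a gene had several probes the brightest was used.

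The gene and the lists were chosen with earlier results of these data known. Named are Ccn5, named list members, its 5 neighbours on each side and the 8 genes nearest in profile. The fit was tested on simulated data. The number of arrays limits the precision.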

Additional observations from a re-analysis of the deposited data

How the results depend on the processing

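The log2 difference of Ccn5 kept its direction under all 14 alternatives, and 13 of them moved it by less than the pooled SD of the samples. The exception was normexp (4.70). Leaving out 1 replicate gave 5.35 to 5.58. The other alternatives were the 6 arrays, averaging of Apc+/+ replicates 2 and 3, 75th percentile scaling, the replicate and slide row blocks, the row holding both groups and the authors' values. The 2 counts were less stable, and the cause was not tested beyond the change in tested probes or samples.

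In the reported fit 878 probes and 6 list genes passed. They became 3441 and 22 with 6 arrays, 0 and 0 by limma with Apc+/+ replicates 2 and 3 averaged (6201 and 26 at an unadjusted p below 0.05), 277 and 3 without a filter, 1966 and 12 when well above background on all arrays, and 2089 and 11 above the brightest negative-control probe. Probes alone moved to 1659 with normexp and 1900 with trend and robust eBayes. At the methods' unadjusted threshold they were 5118 and 28. With the methods' t-test they were 4802 and 31 at that threshold, and 1629 probes passed after Benjamini-Hochberg. In the authors' values 28 list genes passed, with adjustment only over the probes of that table, which the authors had already called. Leaving out 1 replicate gave 0 to 973 probes and 0 to 7 list genes. The probe count was 0, 1 and 0 by limma without Apc+/+ replicate 1, 2 or 3 (8917, 5883 and 5796 at an unadjusted p below 0.05), and 361 without Apcfl/fl replicate 3.

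Same-numbered arrays had correlations of their deviations of 0.06, -0.07 and 0.04. Since Apcfl/fl replicates 1 and 2 were nearly alike, these values can say little on whether replicate numbers pair the arrays. With 6 arrays and the replicate block, 1075 probes and 6 list genes passed and the Ccn5 difference was 5.48. No other CCN probe was named, so no alternative was run for one. Signals near the negative controls limit the size of the Ccn5 difference.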
